A study of Mus musculus with 6 samples.

Results

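Heat shock proteins and their J-domain and Bag partners were examined in the soleus, a slow, oxidative hindlimb muscle, of mice lacking the G protein subunit Gα13 in muscle. Members were chosen by name: gene symbols of the Hspa, Hspb, Hspd, Hspe, Hsph, Hsp90, Dnaja, Dnajb and Dnajc series and Bag1 to Bag6. Of the 23152 genes named on the array, 78 qualified, measured by 886 probe sets, with a median of 10 per gene and a range from 2 to 46. They comprised 14 Hsp70 and Hsp110 genes, 3 Hsp90 genes, 2 genes of the mitochondrial chaperonin, 8 small heat shock genes, 4 type A, 13 type B and 28 type C J-domain genes and 6 Bag genes.

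Controls (WT) were Gna13 flox/flox male mice without Cre, and knockouts (Gna13 MKO, here MKO) were Ckmm-Cre; Gna13 flox/flox males, so both groups carried the floxed allele. All were 18 weeks old and had fasted for 14 h. Each group had 3 mice and each mouse 1 array. Ckmm-Cre is driven by the muscle creatine kinase promoter, which is active in muscle fibres, while whole soleus also holds vessels, fibroblasts and leukocytes.

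Chaperones of the Hsp70 class bind exposed hydrophobic stretches of unfolded proteins and release them in a cycle of ATP hydrolysis and nucleotide exchange. J-domain proteins deliver clients and trigger hydrolysis, whereas Bag proteins and Hsp110 promote the exchange of nucleotide that frees the client. Small heat shock proteins hold unfolding proteins without ATP. In muscle, Bag3 couples Hsp70 to the small heat shock protein Hspb8 and directs damaged filamin at the Z-disc to autophagy. Heat shock factors switch on many of these genes by binding heat shock elements, inverted repeats of the unit GAA.

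Because such elements are what many of the genes below share outside the array, the promoters were read first. RefSeq promoter windows of assembly GRCm38.p6, covering 250 bases before to 50 after each start, existed for 63 members, and the 15 without one were Bag4, Dnajc2, Dnajc5, Dnajc5b, Dnajc11, Dnajc12, Dnajc18, Dnajc22, Dnajc30, Hsp90aa1, Hsp90ab1, Hspa8, Hspa9, Hspa13 and Hspb2. A pair of facing units, GAANNTTC or TTCNNGAA, each of which reads the same on both strands, occurred for 17 of the 63 members (27.0%), against 17.0% of all 27025 genes in the promoter table. A run of 3 units, GAA and TTC alternating with any 2 bases between them on either strand, which contains 2 overlapping pairs, occurred for 4 members (6.35%), Dnajb6, Hspd1, Hspe1 and Hsph1, against 0.662% of all genes. A match describes letters and is not evidence that a factor binds there.

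The sites of the members on which the results turn are given as 30 bases each, 5′ to 3′ on the gene's own strand, with the repeat in capitals. They are shown to let the genes that lay lower in MKO (Bag3, Dnaja4, Dnaja1, Hspb1, Hspb8) be set beside those that lay higher (Hspd1, Hsph1). A single site is printed per gene, and Dnaja4, Hspb1 and Hsph1 hold further matches. Dnajb5, also lower in MKO, had no match, and the sites of other matched members such as Dnajb4 are not printed.
Hspd1 (chr1:55088053-55088082, minus strand): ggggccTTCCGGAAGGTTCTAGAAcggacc
Hspe1 (chr1:55088053-55088082, plus strand): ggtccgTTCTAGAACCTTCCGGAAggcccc
Hsph1 (chr5:149636279-149636308, minus strand): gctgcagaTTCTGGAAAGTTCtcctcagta
Dnajb6 (chr5:29735844-29735873, plus strand): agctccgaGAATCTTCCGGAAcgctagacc
Dnaja1 (chr4:40722333-40722362, plus strand): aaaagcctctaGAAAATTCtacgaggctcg
Dnaja4 (chr9:54699458-54699487, plus strand): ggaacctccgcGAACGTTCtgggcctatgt
Hspb1 (chr5:135887791-135887820, plus strand): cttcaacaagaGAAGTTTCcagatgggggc
Hspb8 (chr5:116422844-116422873, minus strand): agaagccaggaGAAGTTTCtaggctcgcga
Bag3 (chr7:128523603-128523632, plus strand): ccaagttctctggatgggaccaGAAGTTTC

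Hspd1 and Hspe1 lie head to head, with 215 bases between their diverging starts (another Hspd1 start lies 95 bases inside Hspe1), and a run of 4 units stands between them, so that the same 30 base pairs appear once on each strand. The printed Hspb1 match, at positions −117 to −110 from the start, the Hspb8 match at 3 to 10 and the Bag3 match at 43 to 50 have the same 8 letters, as has one in Hspb6. The printed genes were picked with their differences known. How often these 8 letters occur in other promoters was not counted, so the likeness is no trait of lower genes. The 250 bases before the start of Hspa1b, the stress-inducible Hsp70, are printed because this gene and Hspa1a are near copies: their windows differed at 4 of 300 positions, and both hold the same match at −104 to −97.
Hspa1b (chr17:34959239-34959488, minus strand): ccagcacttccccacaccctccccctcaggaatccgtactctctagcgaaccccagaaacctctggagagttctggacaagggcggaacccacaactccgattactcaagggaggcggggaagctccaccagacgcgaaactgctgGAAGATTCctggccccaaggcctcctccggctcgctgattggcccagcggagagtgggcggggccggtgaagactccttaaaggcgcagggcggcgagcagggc

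The deposited values are log2 values per probe set, and a gene's value on an array is the mean over its probe sets, so that a difference of 1 means a doubling. Fits were made over all genes with limma, and adjusted p-values are Benjamini-Hochberg values over all genes. The deleted gene was checked first. Gna13 probe set 17257825 was lower in MKO, at 5.48, 6.23 and 6.16 in WT and 3.43, 4.25 and 4.33 in MKO, while 17257824, 17257828 and 17257829 had every MKO array above the controls, by 0.65, 0.51 and 0.67. The mean of all 7 Gna13 probe sets did not separate the groups (0.04, SE 0.13). Exon positions were not used here, so whether a probe set lies in the deleted stretch is unknown. The first principal component of all genes, with 32.8% of the variance, set MKO replicate 1 at 33.6 and the other 5 arrays between −19.7 and 14.4. Markers of muscle fibres were bright on every array, with list means from 10.74 to 10.91. Fast fibre markers had a list mean of 8.70 on MKO replicate 1 and of 9.83 to 10.38 on the other arrays: 6 of 8 had a lower mean in MKO, and 2 of 8 without that array. Slow fibre markers had list means from 9.88 to 10.11 and 4 of 7 were lower. Among other cells, 5 of 5 macrophage and leukocyte markers, 5 of 5 endothelial and 5 of 6 fibroblast markers had lower means in MKO. Their list means were 4.97 to 5.30 in WT and 4.76 to 4.97 in MKO for leukocytes, 7.31 to 7.75 and 7.21 to 7.66 for endothelium, and 7.88 to 8.18 and 7.52 to 8.06 for fibroblasts, with no marker at 0. The ranges of the groups overlapped for endothelium and fibroblasts, and MKO replicate 1 was the lowest array in all 3 lists. Each leukocyte marker taken alone overlapped between the groups. Cd68 differed by −0.82 and the other leukocyte markers by −0.18 to −0.11. Fewer cells of a type and less RNA per cell cannot be told apart here, and the part of fibre types and other cells in the results below was not tested.

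No chaperone gene passed the adjusted threshold. With limma, 0 of the 78 members had an adjusted p under 0.05, as did 0.0% of all genes, and the smallest adjusted p of a member was 0.9997. A re-implemented local pooled error test, the kind the series' design names, also called 0 members. At an unadjusted p under 0.05, limma listed 4 members lower in MKO (2.41% of all genes) and 1 higher (1.92% of all genes), together 6.41% of members, against 4.33% of all genes. The arrays of the groups did not overlap for 7 members, or 8.97%, against 9.25% of all genes: 4 were lower (4.99% of all genes) and 3 higher (4.26% of all genes). In this fit neither share lies far from the background, and both counts moved with single arrays. The first was 2 without MKO replicate 2 (2.56% of members, 3.90% of all genes) and 11, all lower, without MKO replicate 3 (14.1% of members, 6.74% of all genes). The second ranged from 10 to 20 without 1 array: it was 10 without WT replicate 2 (12.8% of members, 17.6% of all genes) and 20 without MKO replicate 3 (25.6% of members, 22.7% of all genes). After quantile normalization 9 members had arrays apart (11.5%), against 10.4% of all genes. The median 95% interval of a member reached 0.28 to either side of its difference, and for 58 members the interval lay wholly within 0.5, a 1.41-fold change, in both directions. Differences smaller than that are not excluded by these data.

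**Figure D1:**
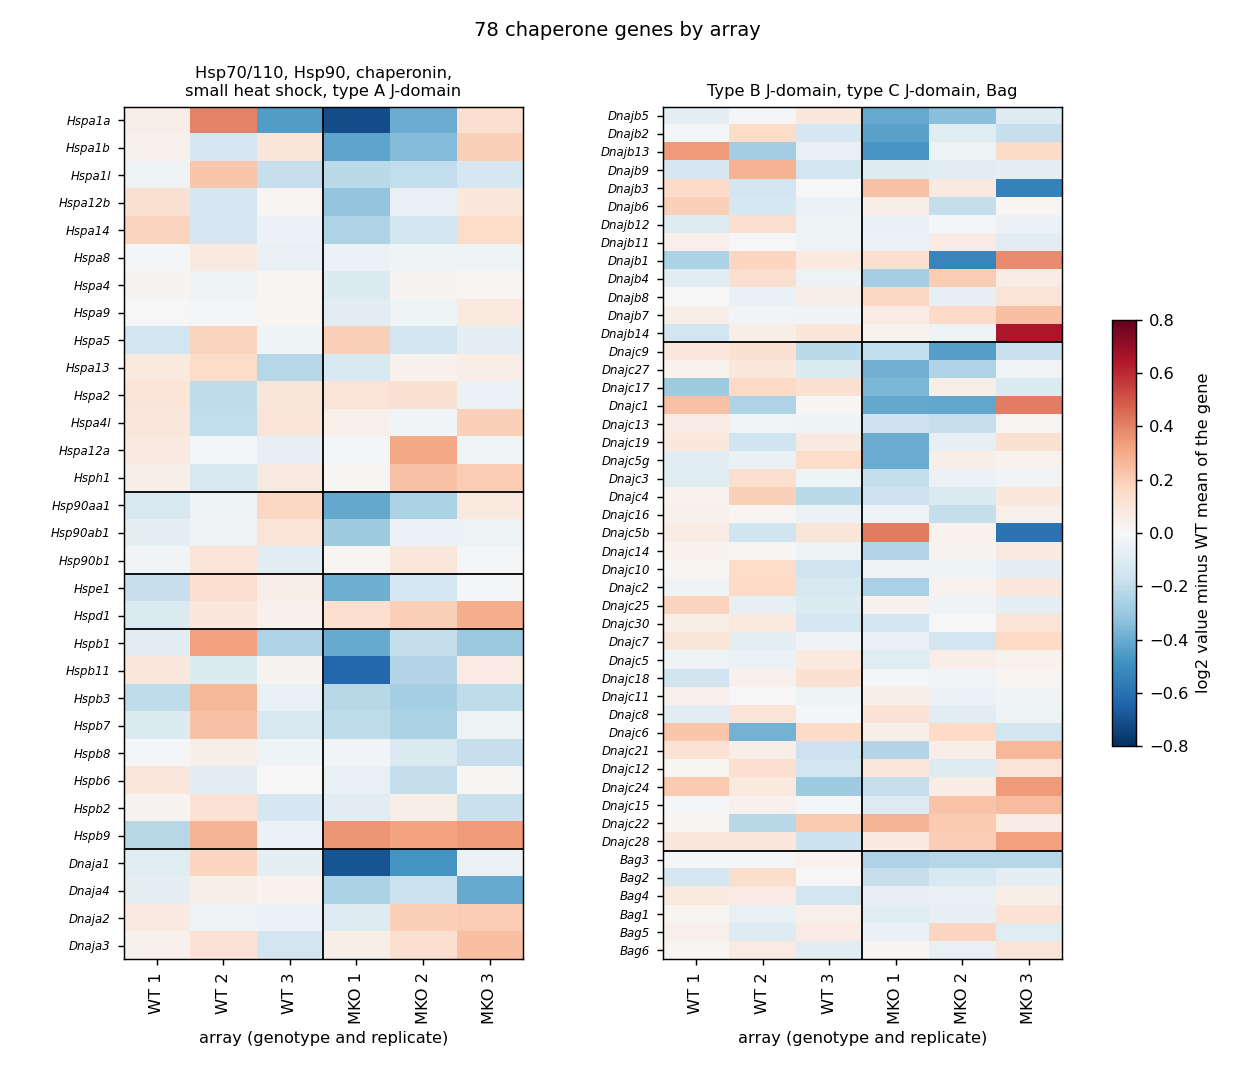
Log2 value of each of the 78 members on each of the 6 arrays minus the mean of the 3 WT arrays (colour), with genes grouped by family between black lines and ordered by their difference. The MKO replicate 1 column is the bluest: 32 of the 78 members had their lowest value on that array.

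As a set, the members leaned downward in the deposited values, and the size of the lean depended on the scaling and on single arrays. In MKO 57 of 78 members (73.1%) had a lower mean, against 53.4% of all genes, and the median difference was −0.04, against −0.01 over all genes. Most members were bright, with 68 of 78 above the median gene level. Of the 11576 genes above that level 61.6% were lower, with a median of −0.038. The 68 members among them had 52 lower (76.5%) and a median of −0.040, so that the medians of members and genes nearly coincided there. The lowest value of a member fell on MKO replicate 1 in 32 cases and on MKO replicate 3 in 6, while MKO replicate 3 held the highest value of 21. Fast fibre markers were also lowest on MKO replicate 1, as given above. Without MKO replicate 1, 44 members (56.4%) had a lower mean, against 51.6% of all genes, and the median was −0.01. Without another array the lower members numbered 48, 48, 57, 52 and 55 when WT replicate 1, 2 or 3 or MKO replicate 2 or 3 was left out, with medians of −0.03, −0.04, −0.07, −0.05 and −0.07. After median centring 43 members (55.1%) were lower, with a median of −0.02, against 47.0% of all genes and a median of 0.01. The centring moved members and all genes alike, so that members stayed below all genes by the same median distance. After quantile normalization of the gene values 38 members (48.7%) were lower, with a median of 0.0048, against 49.7% of all genes and a median of 0.0011. The direction of 26 members, 19 of them lower, was the same in the main fit and in each alternative that included them. Of these, 24 were in all 17 alternatives, while filters on low values left Hspb11 in 16 and Dnajb7 in 15. They are a group picked after their values were seen.

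**Figure D2:**
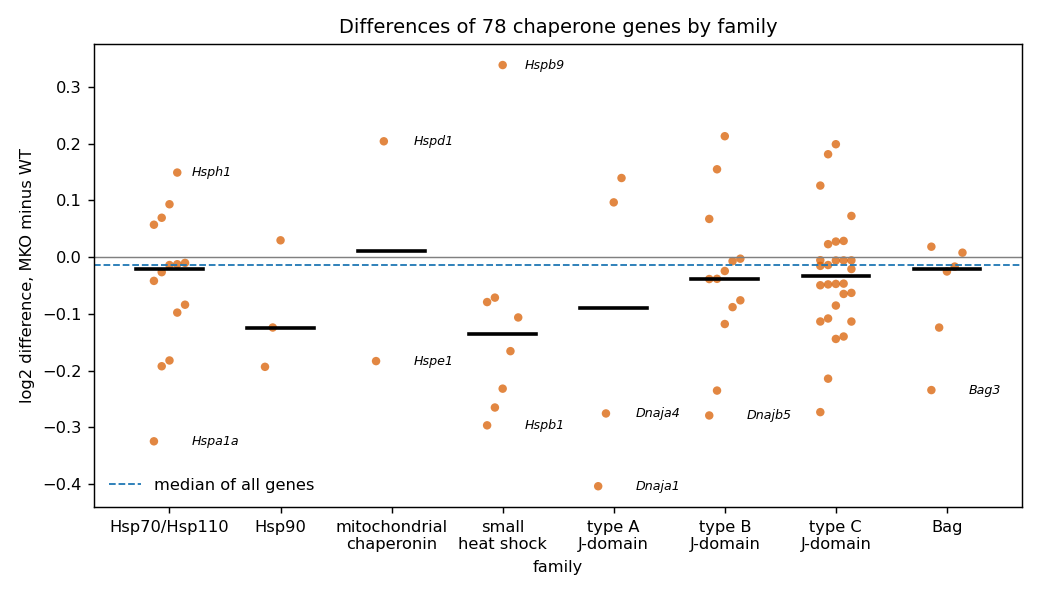
Log2 difference between the MKO and WT means for each of the 78 members (points), with the median of each family (black bar) and of all genes (dashed line). Small heat shock genes had a median of −0.14 with 7 of 8 below 0, while the medians of the Hsp70, J-domain type B and C and Bag families lay between −0.04 and −0.02.

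The Bag family holds the nucleotide exchange factors of Hsp70. Bag3, the member that serves the Z-disc, had the smallest p of all 78 genes and ranked 91st of 23152. Its values were 9.93, 9.93 and 9.97 in WT and 9.69, 9.71 and 9.72 in MKO. All 3 MKO values lay below all 3 WT values, and the difference of the means exceeded the spread within either group (SD 0.02 and 0.01, n = 3). The difference was −0.23 (SE 0.07, 95% interval −0.38 to −0.09, limma adjusted p = 0.9997), a 1.18-fold lower value. Of its 6 probe sets 5 were lower. Probe set 17483737, for example, read 10.40, 10.44 and 10.38 in WT and 9.92, 9.78 and 10.03 in MKO, a difference of −0.50 (SE 0.10). Probe set 17483738 went the other way, at 0.10 (SE 0.08). Bag3 stayed lower in every alternative, between −0.40 and −0.18, and was −0.20 after quantile normalization.

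The other Bag genes lay close to 0. Bag1, which joins Hsp70 to the proteasome, stood at 7.86, 7.79 and 7.89 in WT and 7.75, 7.78 and 7.96 in MKO, so that the groups overlapped (−0.02, 95% interval −0.23 to 0.20). Bag2, an inhibitor of the ubiquitin ligase Stub1, differed by −0.12 (SE 0.13), with all 5 of its probe sets lower and overlapping arrays. Bag4, Bag5 and Bag6 lay between −0.03 and 0.02.

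**Figure D3:**
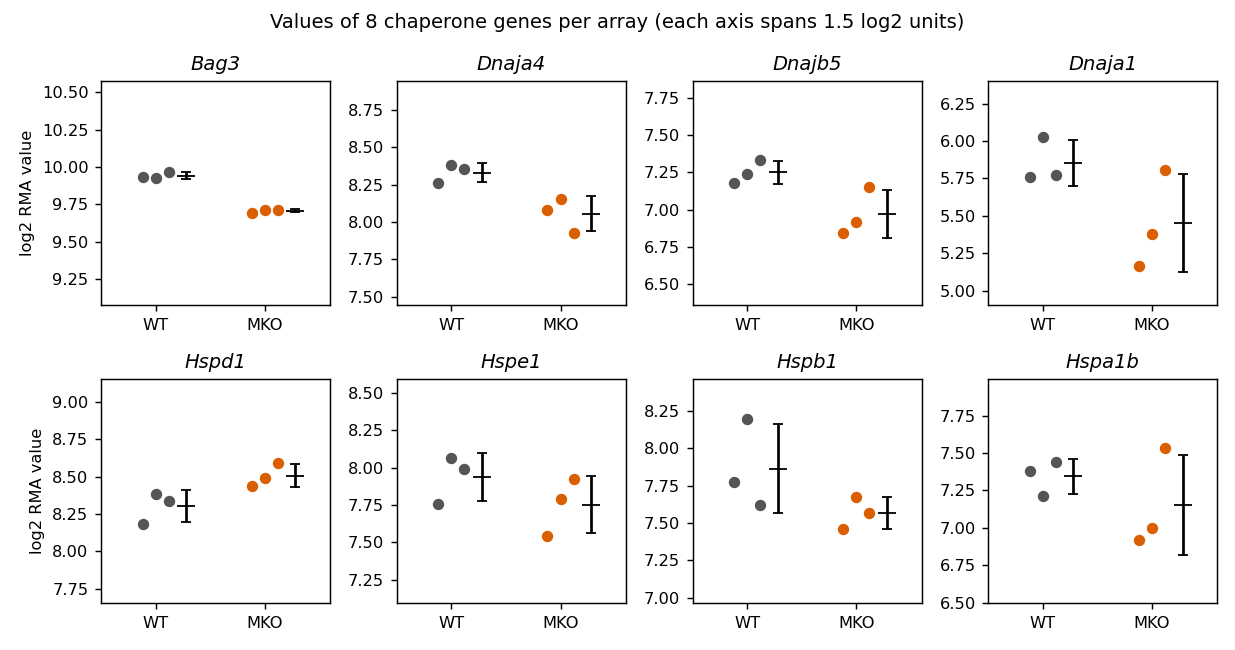
Log2 values of 8 members on the 3 WT (grey) and 3 MKO (orange) arrays, with the mean and SD of each group beside the points (n = 3); each axis spans 1.5 log2 units. Bag3, Dnaja4 and Dnajb5 had every MKO array below every WT array and Hspd1 every MKO array above, whereas Dnaja1, Hspe1, Hspb1 and Hspa1b overlapped.

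Small heat shock proteins, which carry an alpha-crystallin domain and in muscle guard actin, filamin and the Z-disc, were the family with the most even direction. Of 8 genes 7 had a lower mean in MKO (87.5%, all genes 53.4%). The median was −0.14 in the deposited values and −0.11 after quantile normalization or median centring, and 7 of 8 remained lower without any 1 of the 6 arrays. The mean of the family relative to WT was −0.06, 0.13 and −0.08 in WT and −0.16, −0.11 and −0.06 in MKO. The groups thus overlapped, with MKO replicate 3 inside the WT range. The median ran from −0.18 to −0.09 without 1 array, and was nearest 0 without WT replicate 2. None passed the test, and only Hspb3 and Hspb9 had arrays apart. Hspb1, which binds actin and is phosphorylated under stress, read 7.78, 8.19 and 7.62 in WT and 7.46, 7.67 and 7.57 in MKO. Its highest MKO value exceeded the lowest WT value, and WT replicate 2 stood well above the other arrays. The difference was −0.30 (SE 0.14, 95% interval −0.59 to 0.00090) and became −0.13 without WT replicate 2. Of its 8 probe sets 7 were lower.

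Hspb3, the muscle partner of Hspb2, read 6.45, 6.92 and 6.59 in WT and 6.43, 6.39 and 6.45 in MKO. The groups were barely apart, and again WT replicate 2 was the highest array (−0.23, SE 0.13), and the difference was −0.10 without that array. The heart and muscle member Hspb7 followed with the same high array, at 10.86, 11.21 and 10.85 in WT and 10.77, 10.72 and 10.93 in MKO (−0.17, SE 0.09). Without WT replicate 2 its difference was −0.05. For Hspb8, the partner of Bag3, the WT values were 8.75, 8.82 and 8.73 and the MKO values 8.75, 8.65 and 8.59, a difference of −0.11 (SE 0.08) with MKO replicate 1 inside the WT range. Hspb6, a phosphorylated regulator of muscle relaxation, and Hspb2 differed by −0.08 (SE 0.08) and −0.07 (SE 0.10).

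The remaining members of this family are not muscle chaperones. Hspb11, a component of intraflagellar transport, stood at −0.26 (SE 0.19), with a spread of 0.35 (SD, n = 3) in MKO. Hspb9, a testis gene, was the family's exception at 0.34 (SE 0.16). It read 4.52, 5.01 and 4.70 in WT and 5.09, 5.06 and 5.08 in MKO, levels near the median probe set value of the arrays.

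A wider set of 11 chaperones with known roles at the Z-disc and sarcomere of striated muscle joined Bag3, Hspa8, Dnajb4, Dnajb5 and Dnajb6 to 6 of the small heat shock genes. All 11 had a lower mean in MKO in the deposited values, with a median of −0.11. Of these, 10 were lower after median centring and 8 after quantile normalization, where Hspa8, Dnajb6 and Dnajb4 turned to between 0.0042 and 0.04 and the median was −0.06. The mean of the set relative to WT lay between −0.06 and 0.09 in WT and between −0.17 and −0.11 in MKO. The groups were thus apart, narrowly so after quantile normalization (WT −0.05 to 0.06, MKO −0.14 to −0.06). No test was made of the set, since its genes were chosen with earlier results of these data known. Without 1 array 10 or 11 of the 11 were lower, with medians from −0.15 to −0.10. Desmin (Des), the intermediate filament of the Z-disc and a marker of muscle fibres, was lower in the same direction. It read 11.14, 11.11 and 11.11 in WT and 10.80, 10.93 and 10.95 in MKO (−0.23, SE 0.06). Its arrays were apart, and its part in the set's difference was not tested. The other fibre markers did not share this difference, and their arrays overlapped. Acta1 stood at −0.02, Ttn at −0.03, Ckm at 0.06 and Mb at 0.10. The list means of leukocyte markers were 5.30, 5.19 and 4.97 in WT and 4.76, 4.91 and 4.97 in MKO, lower by a narrow margin. Among these markers Cd68 had by far the largest difference, as given above. The list means of endothelial and fibroblast markers overlapped between the groups.

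**Figure D4:**
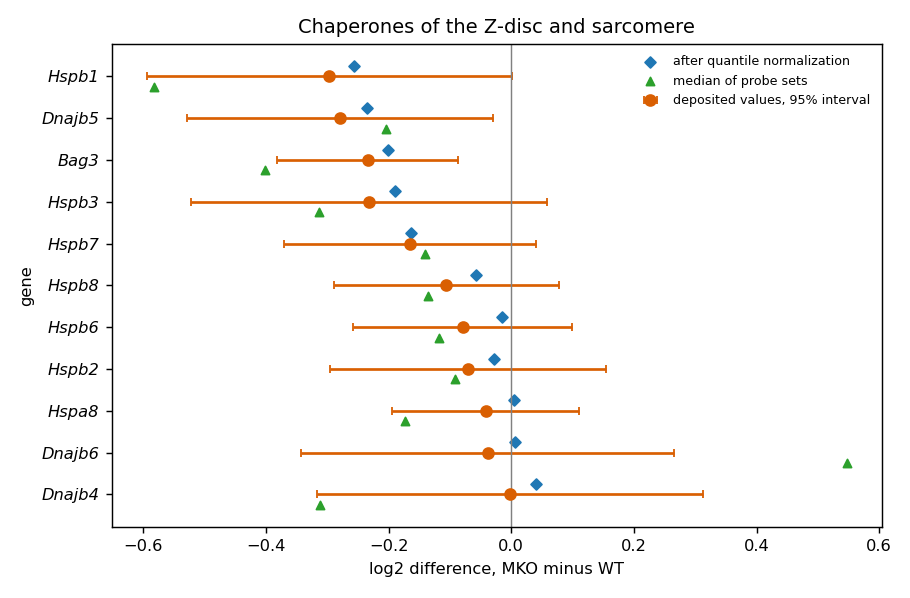
Log2 difference between MKO and WT with its 95% interval for 11 chaperones of the Z-disc and sarcomere (orange), with the difference after quantile normalization (diamonds) and for gene values taken on each array as the median instead of the mean over probe sets (triangles). The intervals of Bag3 and Dnajb5 lie below 0, and Dnajb6 is the gene whose value depends most on the summary of probe sets, at −0.04 and 0.55.

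Among the type A J-domain proteins, which present clients to cytosolic or mitochondrial Hsp70, 2 were lower and 2 higher. Dnaja4 read 8.26, 8.38 and 8.36 in WT and 8.08, 8.16 and 7.93 in MKO. The 2 groups did not overlap, and 8 of its 10 probe sets were lower. The difference was −0.28 (SE 0.10, 95% interval −0.48 to −0.07, limma adjusted p = 0.9997), a 1.21-fold lower value, and it stayed between −0.36 and −0.21 in all alternatives. Dnaja4 and Bag3 thus shared a direction that neither the scaling nor the summary of probe sets altered.

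Dnaja1, a major cytosolic partner of Hsp70, had the largest difference of all members, −0.40 (SE 0.17), but a less even one. Its values were 5.76, 6.03 and 5.77 in WT and 5.17, 5.38 and 5.81 in MKO, so that MKO replicate 3 lay inside the WT range. Probe set 17412792 read 4.98, 5.06 and 4.89 in WT and 2.65, 2.14 and 2.14 in MKO (−2.66, SE 0.39), the smallest p of the 886 probe sets of the members (adjusted p = 0.977 over all rows). Of its 15 probe sets 11 were lower, with a median of −0.35 over their differences. Without 17412792 the gene stood at −0.24, and without MKO replicate 1 at −0.26. When the gene's value on each array was the median over probe sets, the difference was 0.02. A second probe set, 17412775, was higher, at 1.11 (SE 0.46). The value of Dnaja1 thus depended on how its probe sets were summarised. Dnaja2 and the mitochondrial Dnaja3 stood at 0.10 (SE 0.10) and 0.14 (SE 0.11).

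**Figure D5:**
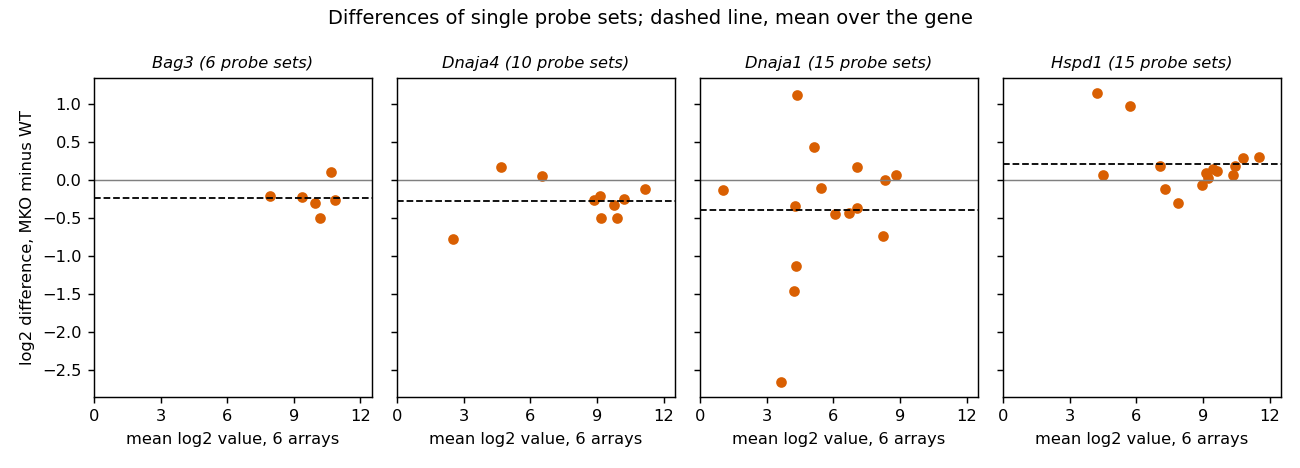
Log2 difference between MKO and WT for every probe set of Bag3, Dnaja4, Dnaja1 and Hspd1 (points) against its mean level over 6 arrays, with the mean difference of the gene as a dashed line. For Bag3 and Dnaja4 most probe sets cluster near the line, whereas a single Dnaja1 probe set lies at −2.66 and the largest Hspd1 differences, 1.14 and 0.97, come from 2 of its dimmer probe sets.

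Type B J-domain proteins include the stress-inducible Dnajb1 and chaperones that suppress aggregation. Of 13 genes 10 were lower in the deposited values, 5 after quantile normalization and 6 to 9 without 1 array. Dnajb5, a heat-inducible family member that in heart muscle links thioredoxin to histone deacetylase 4, read 7.18, 7.24 and 7.33 in WT and 6.85, 6.92 and 7.15 in MKO. The groups were apart by a narrow margin at MKO replicate 3. The difference was −0.28 (SE 0.12, 95% interval −0.53 to −0.03), with 13 of 14 probe sets lower. Its brightest probe set, 17413202, stood at −0.19 (SE 0.12) and the next, 17413199, at −0.03 (SE 0.14), while its largest difference, −0.81 (SE 0.40), came from the dimmer 17413197.

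Dnajb1, the classic heat-inducible Hsp40, read 5.11, 5.54 and 5.44 in WT and 5.49, 4.84 and 5.74 in MKO. The MKO arrays spanned the WT range (−0.01, 95% interval −0.46 to 0.45), and the interval is wide. Dnajb6, mutated in a limb-girdle muscular dystrophy, stood at −0.04 (SE 0.14), and Dnajb4 at −0.0026 (SE 0.15). The ubiquitin-binding Dnajb2 had a lower mean (−0.24, SE 0.13), with the groups overlapping. Dnajb7 went the other way with arrays apart (0.15, SE 0.16), at 1.99, 1.92 and 1.91 in WT and 2.01, 2.09 and 2.18 in MKO. These levels lie far below the median probe set value of 4.84.

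The 28 type C genes share only the J-domain and work in many compartments. Of these 21 were lower in the deposited values and 14 after either other scaling, and 15 to 21 without 1 array. In the deposited values none had arrays apart or an unadjusted p under 0.05. The largest differences with 1 sign in every alternative were those of Dnajc27, a small GTPase with a J-domain (−0.21, SE 0.11, 12 of 13 probe sets lower), and Dnajc28 (0.20, SE 0.14, 5 of 6 probe sets higher). They moved to −0.13 without MKO replicate 1 and 0.11 without WT replicate 3. Dnajc15, a regulator of mitochondrial import, stood at 0.13 (SE 0.12).

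Of the ATPases, the Hsp70 genes differed little. Hspa8, the constitutive Hsp70, read 9.89, 9.98 and 9.85 in WT and 9.86, 9.87 and 9.86 in MKO. The MKO values fell inside the WT range, and the interval of the difference (−0.04, 95% interval −0.19 to 0.11) was among the narrow ones. Likewise the mitochondrial Hsp70 gene Hspa9 (−0.01, −0.16 to 0.13) and the endoplasmic reticulum Hsp70 gene Hspa5 (−0.01, −0.28 to 0.26) had differences near 0, whose sign turned with the scaling. The stress-inducible copies Hspa1a and Hspa1b had lower means with wide errors. Hspa1b read 7.38, 7.21 and 7.44 in WT and 6.92, 7.0 and 7.53 in MKO, and MKO replicate 3 was the highest of all 6 arrays. Its difference was −0.19 (SE 0.15), and its 2 probe sets stood at 0.14 and −0.52. Hspa1a read 5.92, 6.26 and 5.42 in WT and 5.16, 5.48 and 6.0 in MKO (−0.32, SE 0.23). As the genes are near copies, reads of one by the other's probes cannot be told apart. Hsph1, the inducible Hsp110 that frees nucleotide from Hsp70, lay higher at 0.15 (SE 0.11), with 13 of 17 probe sets higher and overlapping arrays.

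Cytosolic Hsp90, which matures kinases, steroid receptors and myosin, had lower means for both genes. The inducible Hsp90aa1 read 6.55, 6.64 and 6.84 in WT and 6.27, 6.43 and 6.75 in MKO (−0.19, SE 0.14), and the constitutive Hsp90ab1 9.38, 9.42 and 9.55 against 9.17, 9.40 and 9.41 (−0.12, SE 0.09). In both the groups overlapped. Without MKO replicate 1 the differences were −0.09 and −0.04. Hsp90b1, the endoplasmic reticulum form, stood at 0.03 (SE 0.08).

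The mitochondrial chaperonin is a barrel of Hspd1 (Hsp60) capped by Hspe1 (Hsp10). Despite the shared promoter region shown above, the 2 genes stood on opposite sides of 0. Hspd1 read 8.19, 8.39 and 8.34 in WT and 8.44, 8.49 and 8.59 in MKO. The MKO values all exceeded the WT values, with a difference of 0.20 (SE 0.09, 95% interval 0.0021 to 0.41, limma adjusted p = 0.9997). Of its 15 probe sets 12 were higher, with a median of 0.11 over their differences. When the gene's value on each array was the median over probe sets, the difference was −0.0028. Without 1 array it ran from 0.15 to 0.25. Hspe1 read 7.75, 8.06 and 7.99 in WT and 7.54, 7.79 and 7.92 in MKO, with overlapping groups (−0.18, SE 0.12). The Hspe1 difference was −0.08 without MKO replicate 1 and −0.12 without WT replicate 2. Within each group both genes had their lowest value on replicate 1. The difference between the 2 genes' responses was not tested.

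Grouped by their promoters, 15 of the 17 members with a facing pair of heat shock units had a lower mean in MKO, with a median of −0.18, against 29 of the 46 members without one, with a median of −0.02. After quantile normalization these were 13 of 17 (median −0.14) and 20 of 46 (median 0.02). Without 1 array they were 13 to 15 of 17 and 22 to 31 of 46, and both medians were highest without MKO replicate 1, at −0.09 and 0.01. The pair occurred in members of every size of difference, from Dnaja1 to Dnajb4, and of the 4 genes with a longer run Hspd1 and Hsph1 lay higher and Hspe1 and Dnajb6 lower. Members without a pair included Dnajb1 and Dnajb5, both described above as heat-inducible. The same split was not made over all genes, and a part of heat shock factors in it was not tested. Of 14 members listed as targets of heat shock factor 1 from textbook knowledge, 11 were lower (median −0.15), or 9 after quantile normalization (median −0.10). Without MKO replicate 1, 11 were lower with a median of −0.08, and without MKO replicate 3 the median was −0.22. Their mean relative to WT was −0.24, −0.17 and 0.04 in MKO replicates 1 to 3 and −0.05 to 0.06 in WT, so that MKO replicate 3 lay with the controls.

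The other genes of the chaperone network gave the same picture of small differences. Of 60 such genes 0 had an adjusted p under 0.05 by limma. At an unadjusted p under 0.05, limma listed 3 lower (2.41% of all genes) and 1 higher (1.92% of all genes). Their count was 0 without WT replicate 2 (3.47% of all genes). It was 2 when WT replicate 1, WT replicate 3 or MKO replicate 2 was left out (2.99%, 4.88% and 3.90% of all genes). Flnc, the filamin that Bag3 clears, differed by −0.21 (SE 0.07), with arrays apart. Heat shock factor 2 (Hsf2) differed by −0.31 (SE 0.13), also with arrays apart, and Stip1, the adaptor between Hsp70 and Hsp90, by −0.23 (SE 0.10). Clpx, the unfoldase of a mitochondrial protease, stood at 0.22 (SE 0.10), with every MKO array above the controls. The same held for Tomm34 at 0.19 (SE 0.12) and Hsbp1 at 0.12 (SE 0.08). Of the 60 genes only Flnc, Hsf2, Clpx, Tomm34 and Hsbp1 had arrays apart, against 9.25% of all genes. Heat shock factor 1 (Hsf1) at −0.03 (SE 0.11), the ubiquitin ligase Stub1 at −0.16 (SE 0.12) and the small heat shock relative Cryab at −0.08 (SE 0.09) did not separate the groups. Of 7 alpha-crystallins and Bag3 partners 6 were lower (median −0.08) and 4 after quantile normalization, and of 14 genes of the cytosolic chaperonin and prefoldin 5 were lower (median 0.01), or 3 to 12 without 1 array.

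Members of other compartments showed no shared direction that held across scalings. Of 8 mitochondrial members 5 were lower in the deposited values and 2 after quantile normalization, and of 10 members of the endoplasmic reticulum 8 and 4. Of 9 testis-biased members 5 were lower under all 3 scalings, with a median of −0.05 in the deposited values. Without 1 array the lower members numbered 2 to 5, 3 to 9 and 3 to 6 in these sets.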

How the data were processed

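Total RNA was profiled on 6 Affymetrix Mouse Gene 2.0 ST arrays. The deposited values are log2 values made by the authors with robust multi-array averaging in Affymetrix Expression Console, per the submitters' processing notes. Their versions and the annotation release: not given in the sources used here. Of 269751 rows, 233753 had 1 gene symbol in the platform's annotation and were used, 5106 had several and 30892 none. All 78 members are current RefSeq symbols. Gene values were means over probe sets. The comparison, MKO minus WT, was fitted over all 23152 genes with limma 3.58.1 (variance trend) in R 4.3.3, two-sided, with Benjamini-Hochberg adjustment and a threshold of 0.05. Single probe sets were fitted over all rows. With 3 mice a group, exact permutation reaches no p below 0.1, and precision is limited by the number of arrays. On simulated data limma recovered 45 of 100 genes changed by 1 log2 unit and 4 of 100 changed by 0.5.

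The members and gene lists were chosen with earlier results of these data known. Named genes were members at an unadjusted p under 0.05 and 21 members and 3 other genes with well-known roles. Further members were named to complete a family, for arrays that lay apart or for a sign common to all alternatives. Tomm34 and Hsbp1 were named for arrays that lay apart. The local pooled error test was re-implemented from its published description and called unchanged genes in the simulation (111 of 22952). Promoters were searched with Python 3.11.15.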

Additional observations from a re-analysis of the deposited data

How the results depend on the processing

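No member was called under any of the 17 alternatives, and the smallest adjusted p of a named member was 0.524 (limma). Of 37 named members 23, and of 7 other named genes 5, kept their sign in each alternative that included them. Dnajb7, Tomm34 and Hsbp1 are not among the genes counted here. The cause of the changes below was not tested.

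The 5 members at an unadjusted p under 0.05 (6.41%, all genes 4.33%) became 3 after median centring (3.85%, all genes 3.88%), 1 without a variance trend (1.28%, 4.31%), 2 with the local pooled error test (2.56%, 3.33%), 3 without the probe set that differs most (3.85%, 4.32%), and 2 to 11 without 1 array (2.56% to 14.1%, all genes 2.99% to 6.74%). The 7 members with arrays apart (8.97%, all genes 9.25%) became 3 after median centring (3.85%, 8.96%), 15 after quantile normalization without MKO replicate 1 (19.2%, 22.04%), 4 without the probe set that differs most (5.13%, 9.24%), and 10 to 20 without 1 array (12.8% to 25.6%, all genes 15.9% to 22.7%), where fewer arrays need to be apart. The 4 other genes at an unadjusted p under 0.05 (all genes 4.33%) became 0 after median centring (all genes 3.88%) and 0 without a variance trend (4.31%). They became 0 with the local pooled error test (3.33%) and 0 to 3 without 1 array (2.99% to 6.74%). The Gna13 mean ran from −0.057 to 0.14 without 1 array.

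The labels do not say whether same-numbered mice were paired, and 6 arrays cannot settle it. The correlations of same-numbered deviations were −0.09, 0.09 and −0.24, and 0 WT arrays correlated best with their own number. With the replicate block 5 members (6.41%, all genes 3.77%) and 2 other genes had an unadjusted limma p under 0.05, and 0 members were called.

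Signs turned as follows. With the median over probe sets on each array, Dnaja1 stood at 0.023, Hspd1 at −0.0028, Hspa5 at 0.12, Hspa9 at 0.021, Dnajb1 at 0.14, Dnajb6 at 0.55, Bag4 at 0.067, Bag5 at −0.064 and Stub1 at 0.15. Without the probe set that differs most, Hspa1b stood at 0.14, Hspa5 at 0.042, Hspa8 at 0.011, Hspa9 at 0.030 and Dnajb6 at 0.042. After quantile normalization, Hspa5 stood at 0.022, Hspa8 at 0.0042, Hspa9 at 0.063, Dnajb1 at 0.038, Dnajb4 at 0.040, Dnajb6 at 0.0055, Bag1 at 0.031, Bag4 at 0.012 and Hsf1 at 0.0095. After median centring, Hspa5 stood at 0.012, Hspa9 at 0.011, Dnajb1 at 0.018, Dnajb4 at 0.022 and Bag1 at 0.0080. With brighter probe sets only, Hspa5 stood at 0.00078, Dnajb6 at 0.052, Bag6 at −0.020, Hsf1 at 0.0041 and Stub1 at 0.13. After quantile normalization without MKO replicate 1, Hspa9 stood at 0.079, Dnajb4 at 0.12, Bag1 at 0.024 and Bag4 at 0.024. With local pooled error, Dnajb1 stood at 0.048, Dnajb4 at 0.098, Dnajb6 at 0.065 and Bag5 at −0.093. Without 1 array, ranges were −0.11 to 0.076 for Hspa5, −0.060 to 0.022 for Hspa9, −0.20 to 0.25 for Dnajb1, −0.11 to 0.13 for Dnajb4, −0.11 to 0.055 for Dnajb6, −0.081 to 0.023 for Bag1, −0.098 to 0.014 for Bag4, −0.075 to 0.060 for Bag5, −0.023 to 0.059 for Bag6, −0.016 to 0.085 for Hsp90b1 and −0.081 to 0.017 for Hsf1. Other named members kept their sign without any 1 array. Their ranges were −0.55 to −0.13 for Hspa1a, −0.38 to −0.077 for Hspa1b and −0.33 to −0.087 for Hsp90aa1. Small heat shock genes ran from −0.42 to −0.13 for Hspb1, −0.43 to −0.083 for Hspb11, −0.14 to −0.015 for Hspb2 and −0.12 to −0.025 for Hspb6. The range was −0.19 to −0.055 for Bag2 and 0.089 to 0.22 for Hsph1. It was 0.045 to 0.20 for Dnaja2, 0.064 to 0.20 for Dnaja3 and 0.064 to 0.24 for Dnajc15.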

Other observations

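Some probe sets are annotated to a member and another gene and were left out of the gene values. Probe set 17336822, shared by Hspa1a and Hspa1b, read 5.91, 6.06 and 5.99 in WT and 5.87, 6.03 and 6.06 in MKO, and 17336823, shared by the same genes, differed by −0.47 with a spread of 0.50 (SD, n = 3) in WT. Hspb2 and Cryab share 17526925 and 17526926, which differed by −0.26 and −0.09, in the direction of both genes.

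Single probe sets of members could differ more than the mean of their gene. Probe set 17455512 of Hsph1 stood at 0.85 (SE 0.20), 17353648 of Dnajc18, a membrane J-domain protein, at 0.63 (SE 0.15) and 17516382 of Hspa8 at −0.88 (SE 0.28). Of 886 probe sets of members, 33 were lower and 21 higher at an unadjusted limma p under 0.05, or 6.09%, against 5.0% of all rows, and 0 at an adjusted p under 0.05 (0.0% of all rows).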
